A study of Mus musculus with 31 samples.

Results

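Egr1, Egr2, Egr3, Nr4a1, Nr4a2, Nr4a3, Dusp1, Dusp2, Zfp36 and Ier2 are early-response genes, which cells transcribe quickly after receptor or stress signals. They were taken by symbol, through their Ensembl gene IDs, as 10 of the 48881 genes in RNA-seq count tables of mouse thymocyte cultures and of group 2 innate lymphoid cells (ILC2). DN1 and DN3 thymocytes, an earlier and a later stage of early T cell development, were cultured with IL-2, stem cell factor and IL-7 over the stromal line OP9-DL1. All culture donors were C57BL/6 mice with the alleles R26-CreERT2 (a Cre recombinase switched on by tamoxifen, 4-OHT in the labels) and R26-stop-tdTomato (a red reporter that Cre switches on). The floxed cultures also carried E2Af/f and HEBf/f, the floxed genes of the E proteins E2A (Tcf3) and HEB (Tcf12), and the control cultures did not. Tamoxifen was added on day 4, libraries of day 4 came from cells not sorted for tdTomato, and those of days 5 and 7 from sorted tdTomato-positive cells. The labels of the DN1 day 7 samples place 4-OHT on day 7 and the design text on day 4, and day 4 was used.

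Each of the 12 culture groups (DN1 or DN3, floxed or control, day 4, 5 or 7) had 2 libraries. Fresh ILC2 came from the thymus (n = 2) and lung (n = 2) of mice with plck-Cre and the floxed E2A and HEB alleles, called dKO, and from the lung of plck-Id1 mice (n = 3), in which a transgene makes Id1, an inhibitor of E proteins. Both transgenes are driven by the proximal Lck promoter, which acts in T-lineage cells, so these mice differ from the cultures in when and where E protein activity was lowered. For 2 of these 3 the genotype label names plck-Id2 or plck-Id3 instead, and their titles were used. No label says that replicates were separate animals or cultures, so p-values cover only the spread among these libraries, which may be technical.

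Egr1, Egr2 and Egr3 are zinc-finger transcription factors that mark recent signalling through MAP kinases, and Nr4a1, Nr4a2 and Nr4a3 are orphan nuclear receptors that T cells induce after antigen receptor signals. Dusp1 and Dusp2 are nuclear phosphatases that remove the activating phosphates of MAP kinases, Zfp36 (tristetraprolin) binds AU-rich mRNA and speeds its decay, and Ier2 is a nuclear early-response protein. E proteins bind E-boxes and drive T cell genes, and in thymocytes the Egr factors are known to induce Id3, an E protein inhibitor.

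The culture libraries held 5908459 to 10692186 counts each. Thymic ILC2 had 4818443 and 5669876 counts, dKO lung ILC2 3695522 and 5627406, and Id1 lung ILC2 9671437 to 13065445. Tcf3 was 16.3 to 38.3 CPM (counts scaled to a common library total) in DN1 and 14.5 to 32.0 CPM in DN3 floxed libraries of day 7, against 81.6 to 94.6 and 95.1 to 102 CPM in their controls. Tcf12 was 103 to 110 against 273 to 285 CPM in DN1 and 146 to 165 against 513 to 515 CPM in DN3. Id1 was 25.6 to 82.5 CPM in Id1 lung and at most 0.271 CPM in dKO lung. Genotype went with sex in the cultures, since Xist was 588 to 1901 CPM in the 12 floxed and 4.55 to 71.4 CPM in the 12 control libraries, so the 2 cannot be told apart. Markers of stromal cells (12 genes, such as Col1a1) summed to 2777 to 13910 CPM on day 4 and to 67.9 to 283.5 CPM on days 5 and 7. Skeletal muscle markers summed to 8667 CPM in DN1 floxed library b of day 7 and to at most 523.8 CPM in the other culture libraries. Mitochondrial genes held 56.3% to 62.0% of the counts in thymic ILC2 and 2.02% to 3.55% in the cultures. The 10 ILC2 markers summed to 1508 to 2303 CPM in thymic ILC2, 2534 to 7653 CPM in lung ILC2 and 547 to 2932 CPM in the cultures of days 5 and 7. Of these markers Il1rl1, the IL-33 receptor, was 144.3 to 384.6 CPM in thymic ILC2 and at most 1.08 CPM in floxed cultures of day 7, while Il13 was at most 0.176 CPM in thymic ILC2 and 5.08 to 35.4 CPM in those cultures.

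The RefSeq promoter table (build GRCm38.p6) listed 7 of the 10 genes. The 3 stretches printed here are those of the gene that rose most widely after deletion (Dusp1), the gene that fell (Dusp2) and an Nr4a gene with no genotype difference past the threshold (Nr4a1). Each runs 5′ to 3′ on the gene's strand and starts 250 bases before a transcription start. Capitals mark matches, on either strand, to an E-box (CANNTG), a short cyclic AMP response element (TGACG; 2 overlapping copies on opposite strands make the full element, or CRE, TGACGTCA) or an Egr site (GCGNGGGCG). The Dusp1 stretch, chr17:26508520-26508722 on the minus strand, stops after 203 bases where an annotated exon begins. Dusp2 is shown for chr2:127335909-127336158 and Nr4a1 for chr15:101266596-101266845, both on the plus strand. The Dusp1 and Nr4a1 stretches each lie in an intron of 1 longer annotated transcript of the same gene.
Dusp1: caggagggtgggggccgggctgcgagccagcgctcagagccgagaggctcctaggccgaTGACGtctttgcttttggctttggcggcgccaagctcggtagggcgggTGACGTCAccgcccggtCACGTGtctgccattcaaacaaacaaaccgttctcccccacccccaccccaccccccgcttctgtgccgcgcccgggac
Dusp2: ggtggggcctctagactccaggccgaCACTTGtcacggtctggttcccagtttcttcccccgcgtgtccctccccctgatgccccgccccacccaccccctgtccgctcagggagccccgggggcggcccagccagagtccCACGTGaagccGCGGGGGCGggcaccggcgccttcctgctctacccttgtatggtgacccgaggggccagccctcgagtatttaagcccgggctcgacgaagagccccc
Nr4a1: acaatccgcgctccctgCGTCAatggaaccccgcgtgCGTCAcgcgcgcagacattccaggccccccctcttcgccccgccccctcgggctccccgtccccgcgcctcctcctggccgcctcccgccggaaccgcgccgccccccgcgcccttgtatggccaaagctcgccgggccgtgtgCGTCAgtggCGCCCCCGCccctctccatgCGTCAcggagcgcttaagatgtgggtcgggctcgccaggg

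Dusp1 held a full CRE starting 143 bases and an E-box starting 126 bases before its start. Dusp2 held 2 E-boxes and 1 Egr site and no short CRE. Nr4a1 and Nr4a2 held 1 Egr site each, and Nr4a1, Nr4a2 and Nr4a3 each held 4 short CREs, which 17.8% of the 32851 promoters in the table have at least once. A full CRE was found in 1.55% of promoters, an Egr site in 4.70% and an E-box in 66.2%. Zfp36 had a serum response factor CArG box, present in 1.47% of promoters, and 1 Egr site. Egr2, for which several starts are listed, had a CArG box before most of them. The E-boxes CAGCTG and CAGGTG, forms that E proteins are known to bind, were in none of the 11 listed promoters of these genes and in 13.0% and 17.2% of all promoters. These are matches of letters in a 250-base window, not measured binding.

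**Figure D1:**
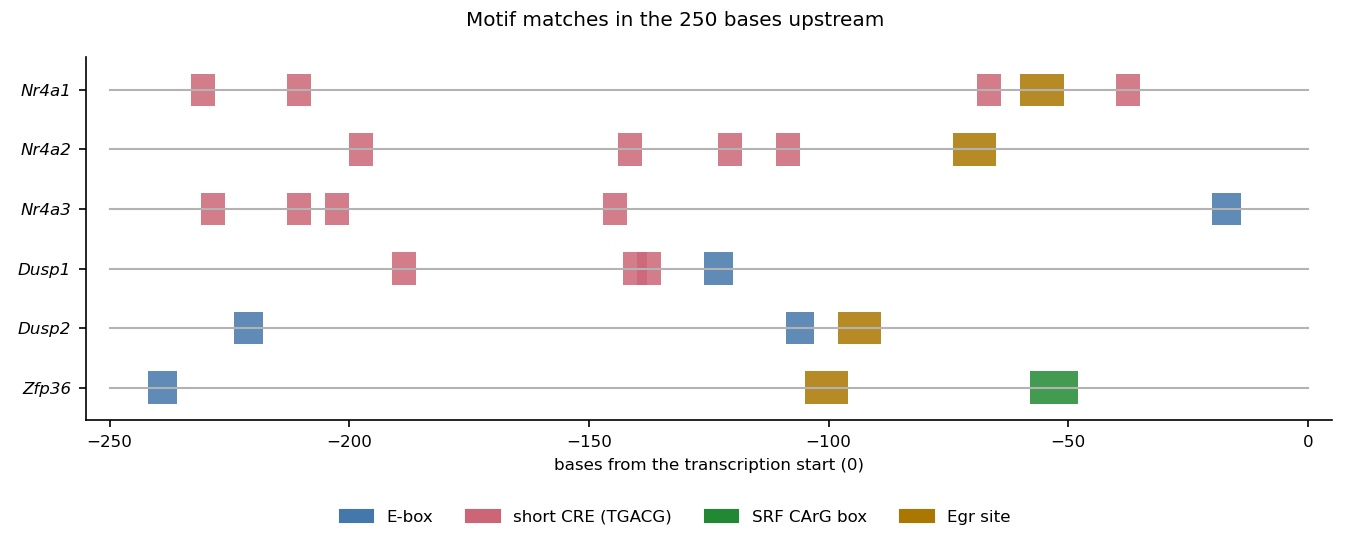
Motif matches in the 250 bases before the transcription start of 6 genes, with the distance from the start in bases on the horizontal axis and 1 row per gene; coloured bars mark E-boxes, short CREs, SRF CArG boxes and Egr sites on either strand. The 3 Nr4a genes each show 4 short CREs, the 2 overlapping short CREs of Dusp1 form its full CRE, and Egr2 is not drawn because the table lists several starts for it.

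Before deletion none of the genes passed between genotypes in the main fit (all 24 culture libraries, low counts filtered out). On day 4, 0 of the 9 genes that passed the low-count filter differed between floxed and control cultures of DN1 or of DN3 in edgeR's quasi-likelihood test at a false discovery rate (FDR) under 0.05, where 0.105% of 15172 genes tested did in DN1 and 0.442% in DN3. At an unadjusted p under 0.05 there was 1 gene in each, Dusp1 in DN1 (0.61 ± 0.21 on the log2 scale, standard error) and Nr4a2 in DN3 (0.69 ± 0.26), both with the floxed libraries higher. DESeq2 also gave 0 calls on day 4 in both. With only the compared libraries in the edgeR fit, Dusp1 passed in DN1 (0.64, FDR 0.0194), where 38 of 13564 genes did. Without the low-count filter Dusp1 (0.63, edgeR FDR 0.011) and Nr4a1 (0.80, FDR 0.0219) passed in DN1, where 229 of 29760 genes did. The filter left out Egr3, which had 9 counts over the 24 culture libraries and none in 19 of them, where a count of 0 allows up to 0.310 to 0.508 CPM.

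After deletion the genes split. On day 5 in DN1, 3 of the 9 tested genes passed (Dusp1 and Egr1 higher, Dusp2 lower), with 5.02% of all genes called. On day 7 in DN1, 3 passed (Dusp1 and Zfp36 higher, Dusp2 lower), with 22.5% of all genes called. In DN3 on day 5, 1 passed (Dusp2 lower), where 9.76% of all genes were called and 5.2% were lower. In DN3 on day 7, 4 passed (Egr1, Dusp1, Zfp36 and Ier2, all higher), where 24.9% of all genes were called and 12.9% were higher. Counts of 3, 3, 1 and 4 of 9 stand against 5.02%, 22.5%, 9.76% and 24.9% of all genes, so the 9 genes were called more often than genes at large on day 5 in DN1 and within 2 times as often in the other 3. These shares were not tested. The median log2 difference of the 9 genes was 0.41, 0.19, -0.41 and 1.10 in these comparisons, and that of all genes tested was 0.00, 0.00, 0.00 and -0.01. Already on day 4, before tamoxifen, the median of the 9 genes was 0.284 in DN1 and 0.168 in DN3. That of all genes was then -0.015 and 0.015, and the DN1 median of day 7 was below that of day 4. No Nr4a gene and not Egr2 passed in any of the 6 floxed-against-control comparisons. In bulk RNA, more cells that express a gene and more RNA per cell cannot be told apart.

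**Figure D2:**
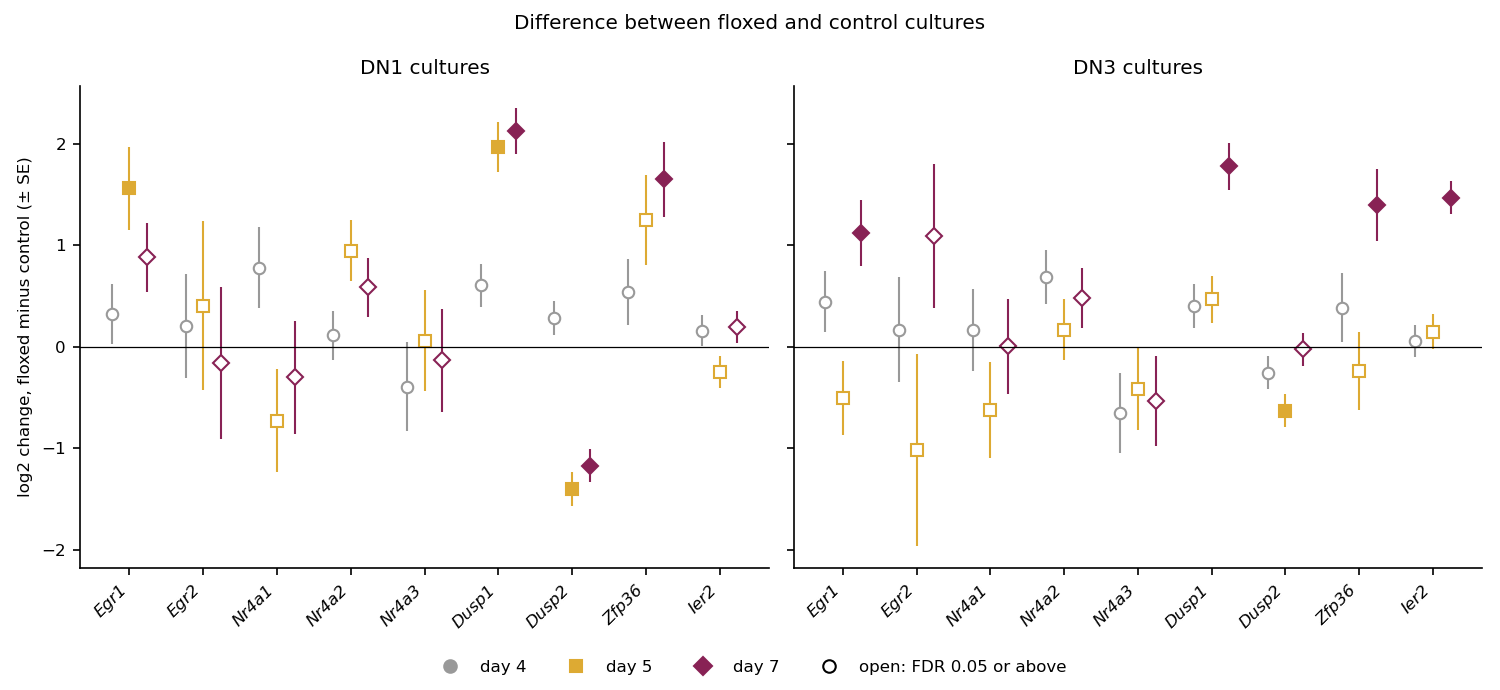
Log2 difference, floxed minus control, with its standard error for the 9 genes tested, in DN1 cultures (left) and DN3 cultures (right) on days 4, 5 and 7; filled symbols passed an FDR of 0.05. Dusp1 lies near 2 in DN1 on days 5 and 7 and at 1.78 in DN3 on day 7, Dusp2 falls below -1 only in DN1, and Ier2 is filled only in DN3 on day 7.

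Dusp1 (chromosome 17, 26505590 to 26562128, minus strand) was higher in floxed cells of both precursors. In DN1 controls it was 15.4 and 11.01 CPM on day 5 and 32.8 and 24.2 CPM on day 7. In DN1 floxed cultures it was 46.1 and 59.4 CPM on day 5 and 110.5 and 128.8 CPM on day 7. Every floxed library lay above every control library of its day. This was so on day 4 too, at 123.8 and 134.5 against 82.0 and 87.0 CPM, a difference that did not pass in the main fit. The difference was 1.97 ± 0.24 on day 5 (edgeR FDR 4.94e-05) and 2.13 ± 0.23 on day 7 (FDR 2.15e-06), and the day 7 value without the library with muscle RNA was 1.99.

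In DN3 the Dusp1 difference was small on day 5 and large on day 7. On day 5 the floxed libraries were at 38.7 and 31.9 CPM and the controls at 28.6 and 20.1 CPM, a difference of 0.47 ± 0.23 that did not pass (FDR 0.235). On day 7 they were at 73.1 and 61.6 CPM against 20.7 and 20.3 CPM, a difference of 1.78 ± 0.23 (FDR 1.36e-05). Ergic1, which overlaps the Dusp1 locus on the other strand, was 53.5 to 118 CPM in the cultures. On day 7 it was 91.8 to 106 CPM in DN1 floxed and 90.3 to 93.7 CPM in DN1 control cultures. In DN3 on day 7 it was higher in floxed cultures without overlap, as Dusp1 was, at 68.8 to 80.2 against 53.5 to 61.3 CPM. In DN3 on day 5 it was lower in floxed cultures, at 63.2 to 65.3 against 76.5 to 77.0 CPM. Its part in the Dusp1 difference was not tested. Whether counting used the strand is not given in the sources used here.

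Dusp2 (chromosome 2, 127336159 to 127338376, plus strand), the other phosphatase, moved the opposite way in DN1. Its DN1 control libraries were at 248.8 and 294.1 CPM on day 5 and 226.1 and 306.8 CPM on day 7. The DN1 floxed libraries were at 115.7 and 94.4 CPM on day 5 and 99.7 and 126.7 CPM on day 7. Dusp2 fell below every control library on both days, by 1.40 ± 0.17 on the log2 scale on day 5 (edgeR FDR 2.89e-05) and by 1.17 ± 0.16 on day 7 (FDR 4.53e-05). On day 4 the order was the other way round, at 157.8 and 159.8 CPM in floxed against 125.6 and 135.1 CPM in control libraries, a difference that did not pass (0.28 ± 0.16).

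In DN3 cultures Dusp2 fell on day 5 and did not pass on day 7. The floxed libraries were already below the controls on day 4, at 106.6 and 121.2 against 138.7 and 137.0 CPM, without passing. Its day 5 values were 97.0 and 118.0 CPM in floxed and 159.0 and 159.3 CPM in control libraries (-0.63 ± 0.16, edgeR FDR 0.0192). This call was lost without floxed library a (FDR 0.154), control library c (0.0999) or control library d (0.0778). On day 7 the groups overlapped, at 152.3 and 192.2 against 198.1 and 169.2 CPM (-0.02 ± 0.16, FDR 0.954).

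Zfp36 (chromosome 7, 28376784 to 28380253, minus strand) was higher in floxed cells of both precursors on day 7. In DN1 it was 23.9 and 18.4 CPM in floxed and 8.73 and 5.24 CPM in control libraries (1.65 ± 0.37, edgeR FDR 0.00312), a call lost without control library d (FDR 0.0623). In DN3 it was 22.7 and 24.4 against 8.92 and 9.72 CPM (1.40 ± 0.36, FDR 0.00657). The DN3 call moved to an FDR of 0.0505 without floxed library b or control library d and to 0.052 without control library c, with log2 differences of 1.33 to 1.46. On day 5 Zfp36 was 7.34 and 9.64 against 5.34 and 1.77 CPM in DN1 (1.25 ± 0.44, FDR 0.12) and overlapped between genotypes in DN3. The antisense gene Gm44710 at this locus had 0 counts in every library.

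Ier2 (chromosome 8, 84661331 to 84662852, minus strand) rose in DN3 alone among the calls. Its DN3 floxed libraries were at 85.6 and 82.0 CPM on day 7 and the controls at 33.4 and 30.1 CPM, a difference of 1.47 ± 0.16 (edgeR FDR 2.35e-06). On day 5 the DN3 groups overlapped, at 24.9 and 30.6 CPM in floxed and 25.4 and 22.5 CPM in control libraries. In DN1 on day 7 it was 70.0 and 75.4 against 63.3 and 69.3 CPM (0.19 ± 0.16, FDR 0.399). All DN1 libraries of day 7 lay between the DN3 control and the DN3 floxed libraries. Between the day 7 controls themselves, Ier2 was higher in DN1 than in DN3 by 1.05 ± 0.16 (FDR 8.46e-05) and Dusp2 by 0.53 ± 0.16 (FDR 0.0238), 2 of 9 genes where 22.6% of all genes were called. The Dusp2 call was lost without DN1 control d (FDR 0.35) or DN3 control d (FDR 0.218).

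Egr1 (chromosome 18, 34859823 to 34864984, plus strand) changed less steadily. In DN1 on day 5 it was 16.6 and 29.8 CPM in floxed and 7.42 and 7.85 CPM in control libraries (1.57 ± 0.41, edgeR FDR 0.03), a call lost without floxed library b (FDR 0.395), control library c (0.187) or control library d (0.182). In DN1 on day 7 it was 38.3 and 49.4 against 35.4 and 14.1 CPM, and the 2 control libraries differed more than the groups did (0.89 ± 0.34, FDR 0.0684). It passed without control library c (1.69, FDR 0.00644) or floxed library a (1.07, FDR 0.0358). In DN3 it was 15.5 and 18.1 against 19.5 and 26.3 CPM on day 5 (-0.51 ± 0.37, FDR 0.451) and 58.4 and 79.2 against 38.6 and 28.1 CPM on day 7 (1.12 ± 0.33, FDR 0.0167). The day 7 call in DN3 was lost without floxed library b (FDR 0.173) or control library d (FDR 0.18).

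The remaining transcription factors were low after day 4. Egr2 (chromosome 10, 67535475 to 67542188, plus strand) lay between 0.248 and 2.98 CPM in the 16 libraries of days 5 and 7. Nr4a1 (chromosome 15, 101254269 to 101274795, plus strand) lay between 1.998 and 14.8 CPM, Nr4a2 (chromosome 2, 57106830 to 57124003, minus strand) between 3.80 and 8.64 CPM and Nr4a3 (chromosome 4, 48045153 to 48086447, plus strand) between 0.772 and 4.98 CPM. The 3 receptors did not move together. Nr4a2 was higher in every floxed than in every control library of its group on days 5 and 7 in both precursors, with differences of 0.17 to 0.95 that did not pass. The nearest to the threshold was DN1 day 5, at 7.90 and 8.64 against 4.597 and 3.80 CPM (0.95 ± 0.30, edgeR FDR 0.0807). In DN3 the Nr4a2 gap was narrow. The lower floxed and the higher control library were at 5.456 and 5.435 CPM on day 5 and at 6.262 and 6.226 CPM on day 7. On day 4, before tamoxifen, the DN3 groups were separated the same way (0.69 ± 0.26). How many of all genes separate the genotypes in this way was not counted. Nr4a1 was lower in both DN1 floxed libraries of day 5, at 4.51 and 7.51 against 9.34 and 10.1 CPM, without passing (FDR 0.511).

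**Figure D3:**
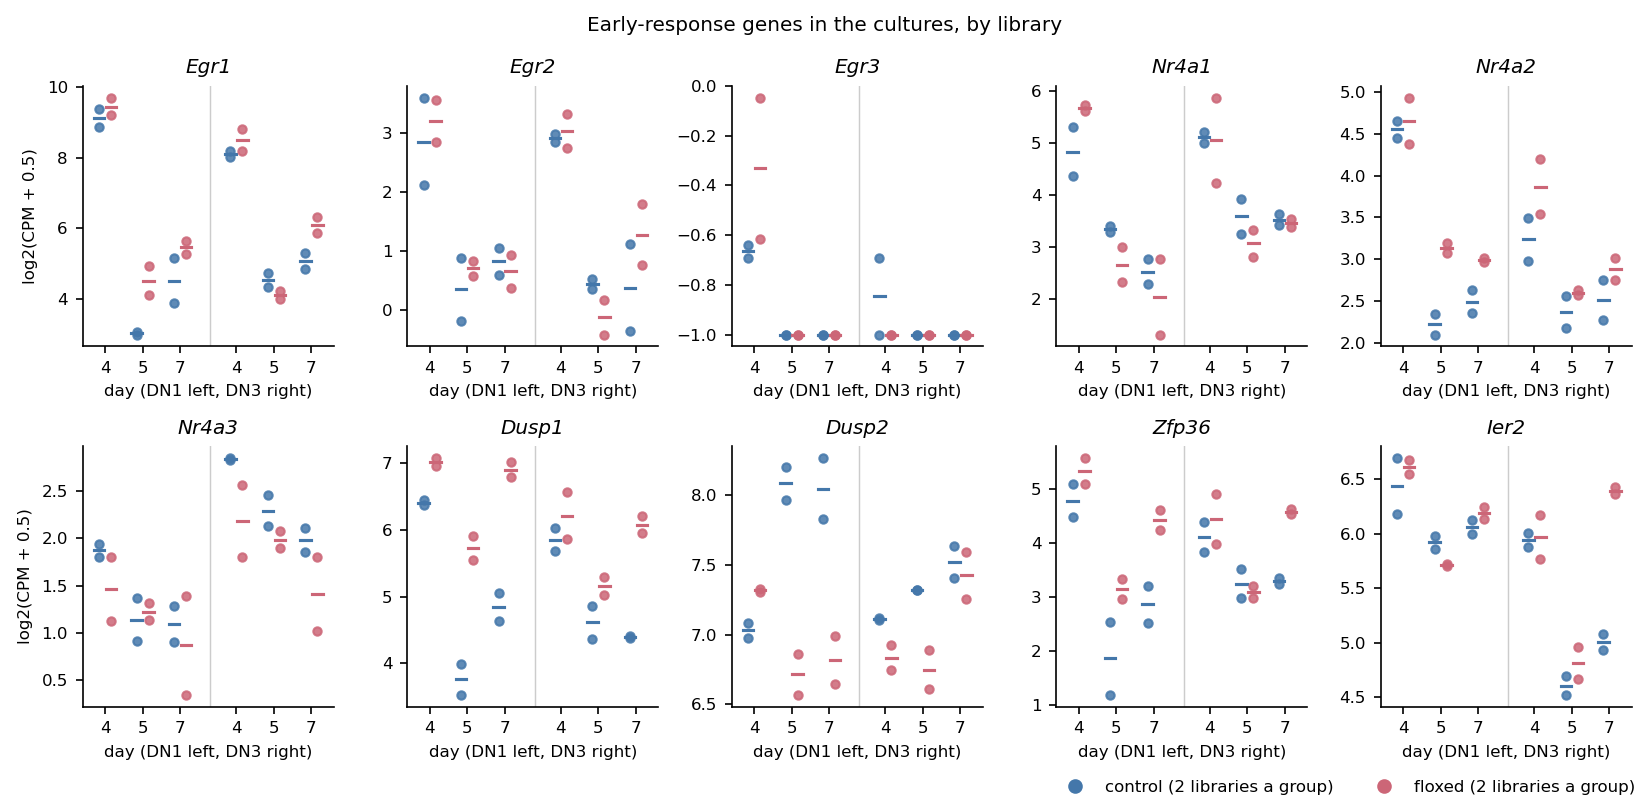
Level of each gene in the 24 culture libraries as log2(CPM + 0.5), by day (DN1 left of the grey line, DN3 right); points are libraries, short lines the means of 2, blue control and red floxed. Egr1, Egr2 and Nr4a1 are highest on day 4, Dusp1 separates the genotypes on day 7 in both precursors, and Egr3 is at 0 counts in all libraries of days 5 and 7.

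The day 4 difference between floxed and control cultures was also taken away from the day 7 difference. What was left passed for 2 of 9 genes in DN1, with 7.78% of all genes called, namely Dusp1 (1.52 ± 0.31, edgeR FDR 0.00404) and Dusp2 (-1.46 ± 0.23, FDR 0.000591). In DN3 it passed for 2 of 9, with 12.3% of all genes called, namely Dusp1 (1.38 ± 0.32, FDR 0.0068) and Ier2 (1.41 ± 0.23, FDR 0.000415). These 4 calls were kept without any 1 of the 8 libraries that each uses. The Zfp36 change was 1.11 ± 0.49 in DN1 and 1.01 ± 0.49 in DN3 and did not pass (FDR 0.179 and 0.204).

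The 2 precursors differed in their response. On day 5 the DN1 difference minus the DN3 difference passed for Dusp1 alone of 9 genes (1.5 ± 0.34, edgeR FDR 0.0305), with 1.36% of all genes called. That call was kept without DN1 floxed library a or DN3 control library d and lost without any 1 of the other 6 libraries, with log2 values of 1.20 to 1.76 (FDR 0.0507 to 0.197). On day 7 it passed for Dusp2 (-1.15 ± 0.23, FDR 0.00465) and Ier2 (-1.28 ± 0.22, FDR 0.00187), 2 of 9 genes where 7.79% of all genes were called. With only the 8 compared libraries in the fit the Dusp2 value was -1.13 (FDR 0.0663). The day 7 Dusp1 differences of 2.13 and 1.78 were not shown to differ (0.35 ± 0.32, FDR 0.553), nor were those of Zfp36 (0.25 ± 0.51, FDR 0.829).

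From day 5 to day 7, both sorted for tdTomato, the DN3 floxed cells gained the most calls. There, 6 of 9 genes rose, with 24.5% of all genes called and 13.6% higher, led by Egr2 (2.34 ± 0.83, edgeR FDR 0.0468), Egr1 (2.12 ± 0.35, FDR 0.000154), Ier2 (1.67 ± 0.16, FDR 4.25e-07) and Zfp36 (1.63 ± 0.36, FDR 0.00241), followed by Dusp1 (1.01 ± 0.22) and Dusp2 (0.76 ± 0.17). The Egr2 call rests on 2 to 22 counts per library and was lost without floxed library a of day 5 (FDR 0.261) or floxed library b of day 5 (0.081) or day 7 (0.464), and with a replicate block (0.0798). The Dusp2 call was lost without floxed library b of day 7 (FDR 0.0546). In DN3 controls 0 of 9 passed (20.3% of all genes called), none had an unadjusted p under 0.05, and DESeq2 gave 0 as well.

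In DN1 fewer genes passed over the same interval, a difference between precursors that was not tested. DN1 floxed cells had 3 of 9 genes higher on day 7 (21.5% of all genes called, 12% higher), namely Dusp1 (1.20 ± 0.22, edgeR FDR 0.000832), Zfp36 (1.33 ± 0.36, FDR 0.0145) and Ier2 (0.50 ± 0.16, FDR 0.0313). With only the 4 compared libraries in the fit these 3 were lost, at FDRs of 0.0506, 0.0813 and 0.18, with log2 values of 1.21, 1.34 and 0.51. In that fit 133 of 12479 genes passed in place of 3256 of 15172. The Zfp36 call was also lost without floxed library a of day 5 (FDR 0.131), and the Ier2 call without that library (0.129), floxed library b of day 5 (0.116) or floxed library b of day 7 (0.173). DN1 controls had 2 of 9 higher (13.1% of all genes called), Egr1 (1.61 ± 0.40, FDR 0.0121) and Dusp1 (1.03 ± 0.25, FDR 0.00952). Without control library c of day 7 both were lost, at 0.80 each (FDR 0.317 and 0.138). Egr1 was also lost without control library c or d of day 5 (FDR 0.0922 and 0.0918), and Dusp1 without control library d of day 5 (FDR 0.154).

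Levels on day 4 stood apart from later days. Egr1 was 465.8 to 832.3 CPM in the 4 DN1 libraries of day 4 and 7.42 to 49.4 CPM in the 8 later ones, with means 25.6-fold apart. In DN3 it was 258.8 to 449.6 against 15.5 to 79.2 CPM, 9.15-fold apart. Egr2 and Nr4a1 likewise did not overlap between day 4 and later days in either precursor, with means 7.58-fold and 6.37-fold higher in DN1 and 6.84-fold and 3.48-fold higher in DN3. Nr4a2 was 3.83-fold higher without overlap in DN1 and overlapped in DN3, and Dusp1, Dusp2, Zfp36, Ier2 and Nr4a3 overlapped in both. Day 4 libraries were not sorted for tdTomato, carried the stromal markers given above and preceded tamoxifen. Day, sorting and stromal RNA thus cannot be told apart, and no test was made. How many of all genes separate day 4 from later days without overlap was not counted.

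**Figure D4:**
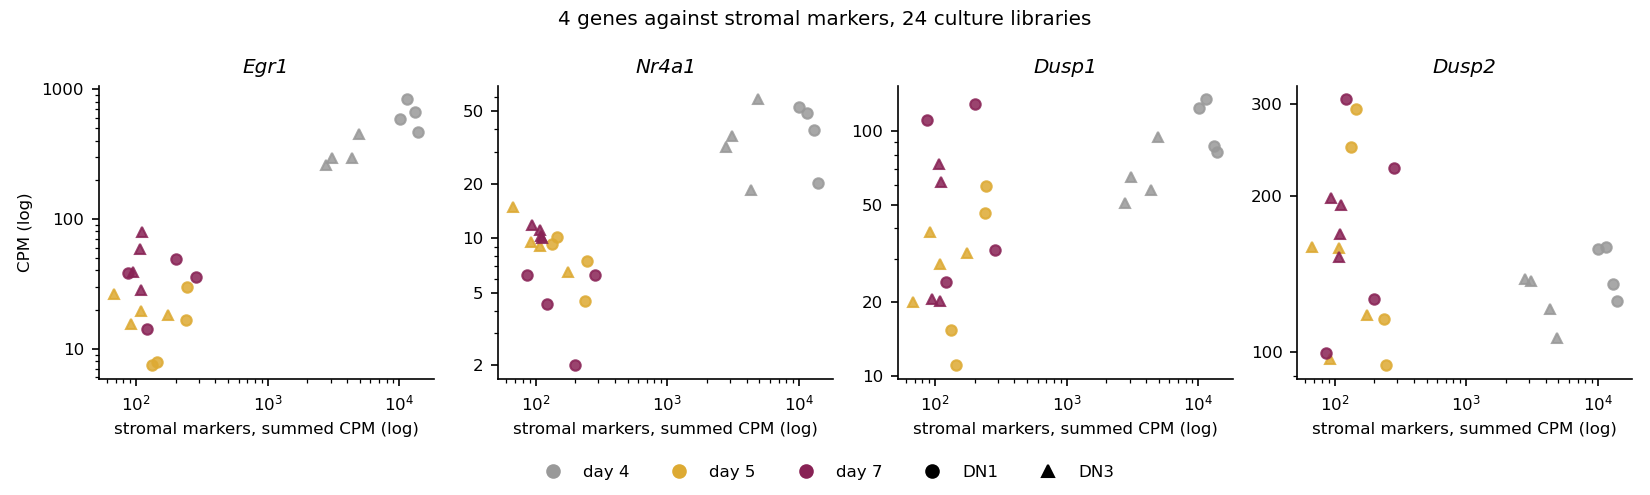
CPM of Egr1, Nr4a1, Dusp1 and Dusp2 against the summed CPM of 12 stromal markers in the 24 culture libraries, both axes logarithmic; colours are days, circles DN1 and triangles DN3. The 8 day 4 libraries form a separate group at 2777 CPM of stromal markers or more, where Egr1 is 258.8 CPM or higher, while Dusp1 and Dusp2 of day 4 overlap the later days.

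Per kilobase of exon, Dusp2 was the most abundant of the 10 genes in all 8 groups of days 5 and 7, from 52.4 CPM per kb in DN1 floxed cultures of day 5 to 135.5 CPM per kb in DN1 controls of day 5. Ier2 came next in each, at 15.7 to 55.1 CPM per kb, and its libraries did not overlap those of Dusp2. In DN1 floxed cells of day 7 the order then ran Dusp1 (36.1 CPM per kb), Egr1 (9.78), Zfp36 (6.10), Nr4a2 (1.84), Nr4a1 (1.18), Egr2 (0.326) and Nr4a3 (0.242) CPM per kb. Neighbours in that order did not overlap between libraries, except Egr2 and Nr4a3. In lung ILC2 of Id1 mice the order was Dusp1 (47.0 CPM per kb), Zfp36 (38.5) and Egr1 (32.9), 3 genes whose libraries overlapped, and Dusp2 was near the bottom at 0.902.

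Over the 8 group means of days 5 and 7, the log2 levels of Egr1 and Zfp36 went together (Pearson r = 0.954). So did those of Dusp1 and Nr4a2 (0.888) and Dusp1 and Zfp36 (0.859). Nr4a3 and Ier2 ran opposite (-0.884), as did, less strongly, Nr4a2 and Dusp2 (-0.686) and Dusp1 and Dusp2 (-0.642). Among 9554 other genes and over all 12 group means, the ones most like Dusp1 were Fosb (r = 0.963), Kif26b (0.916) and Fos (0.905). For Ier2 they were Gnaq (0.961), Dennd5a (0.951) and Tgfbr3 (0.939), for Egr1 Cpe (0.989), Sdc4 (0.979) and Ddr1 (0.979), and for Nr4a1 Rnd3 (0.942), Nr6a1 (0.932) and Exoc3l4 (0.925). The points share libraries within each group, and the 4 groups of day 4 carry the stromal RNA described above and hold the highest Egr1 and Nr4a1 values.

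Other early-response genes were taken from lists, whose counts stand against 5.02% of all genes called in DN1 on day 5, 22.5% in DN1 on day 7, 9.76% in DN3 on day 5 and 24.9% in DN3 on day 7. Of the 9 tested genes of the AP-1 and ATF list, which code for partners in dimeric transcription factors, 3 were higher in DN1 floxed cells on day 5 and 8 on day 7, and 2 and 7 in DN3, with none lower. Fos was at a mean of 122.4 CPM in DN3 floxed cells of day 7 and 11.01 CPM in controls (3.59 ± 0.56, edgeR FDR 8.68e-05), and Fosb at 114.2 and 15.4 CPM in DN1 (2.94 ± 0.53, FDR 0.000536). The median log2 difference of this list on day 7 was 1.69 in DN1 and 1.48 in DN3. Of the 6 Klf genes, zinc-finger factors that respond to some of the same signals, 2 were higher and 1 lower on day 5 in DN1, 3 higher and 1 lower on day 5 in DN3, and 2 higher on day 7 in each, against 22.5% and 24.9% of all genes called. Klf2 was among the higher ones each time, on day 7 (2.15 ± 0.34 in DN1 and 2.89 ± 0.33 in DN3). This factor promotes quiescence and migration of T cells.

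Among 10 other MAP kinase feedback genes, 1 was higher and 1 lower in DN1 and 2 higher in DN3 on day 5. On day 7, 0 were higher and 2 lower in DN1 on day 7, and 2 higher and 1 lower in DN3. Dusp5, a nuclear phosphatase for ERK, was lower in DN1 (-0.63 ± 0.16, edgeR FDR 0.00973) and higher in DN3 (1.20 ± 0.17, FDR 2.58e-05). Dusp10, a phosphatase for p38 and JNK, was lower in both (-0.88 ± 0.30 and -0.99 ± 0.24). Spry2, an inhibitor of receptor tyrosine kinase signals to ERK, was higher on day 5 in DN1 (1.25 ± 0.27, FDR 0.0089) and DN3 (2.03 ± 0.60, FDR 0.0375). Its DN3 means were low, at 1.18 CPM in floxed and 0.267 CPM in control cultures. Dusp6 was also higher in DN3 on day 5, at means of 34.3 and 13.3 CPM (1.30 ± 0.26, FDR 0.00285). Of the 8 Egr partners and targets, 1 was higher in DN1 and 2 lower in DN3 on day 5, and on day 7 1 was higher and 2 lower in DN1 and 3 higher and 1 lower in DN3. Id3 was higher in DN1 floxed cells on day 5 (1.11 ± 0.17, FDR 0.000536) and lower on day 7 (-1.59 ± 0.17, FDR 2.26e-06), while in DN3 it was lower on both days (-1.28 ± 0.17 and -2.17 ± 0.17). Cd69, an early activation marker, was higher in DN3 on day 7 (1.77 ± 0.37).

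Relatives of Zfp36 and Ier2 were mixed. Of 10, 0 were higher and 2 lower in DN1 on day 5, 3 higher and 2 lower in DN1 on day 7, none moved in DN3 on day 5, and 4 were higher and 1 lower in DN3 on day 7. Zfp36l2, which like Zfp36 binds AU-rich mRNA, was lower in DN1 on day 7 (-1.18 ± 0.13, edgeR FDR 2.28e-06), opposite to Zfp36. Ier5 was higher in DN3 on day 7 (1.26 ± 0.13, FDR 7.09e-07), as Ier2 was. Among 8 NF-kB feedback genes 2 were higher and 1 lower in DN1, and 3 higher and 2 lower in DN3, on day 7. Nfkbie, an inhibitor of NF-kB, was lower in all 4 comparisons of days 5 and 7 (-1.44 to -1.73), and Relb, an NF-kB subunit, was higher in DN1 on day 7 (2.17 ± 0.33). Of 10 heat shock genes, which mark stress, 0 passed on day 7 in either precursor and 1 passed on day 5 in each (Hspd1 -0.41 ± 0.11 in DN1, Dnaja1 0.32 ± 0.09 in DN3).

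Fresh thymic ILC2 held little RNA of any of the 10 genes. Dusp1 was at 0.529 and 1.04 CPM, Ier2 at 0.882 and 2.28 CPM and Dusp2 at 6.00 and 2.70 CPM. All 10 together summed to 14.8 and 20.1 CPM, against 202.5 to 463 CPM in the cultures of days 5 and 7. With totals counted without mitochondrial and satellite-type genes, a denominator chosen after the counts were seen, the sums were 39.3 to 47.3 against 208.1 to 474.4 CPM.

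Thymic ILC2 were below DN1 floxed cells of day 7 in 6 of 9 genes, where 40.1% of all genes were lower, and below DN3 floxed cells of day 7 in 7 of 9, where 38.8% were. None of the 9 passed as higher. Egr2 and Nr4a3 had positive differences that did not pass, of 1.11 and 0.82 against DN1 and of 0.16 and 0.14 against DN3. The median of the 9 genes was -2.86 against DN1, where that of all genes was -0.26, and -3.04 against DN3, where it was -0.20. The largest differences were those of Dusp1 (-6.53 ± 0.39 and -5.71 ± 0.40), Ier2 (-4.82 ± 0.27 and -5.04 ± 0.27) and Dusp2 (-3.91 ± 0.27 and -4.53 ± 0.27), with edgeR FDRs from 2.35e-11 to 2.78e-13. Both comparisons use the same 2 thymic ILC2 libraries. Nr4a1 passed against DN3 (-2.25 ± 0.73, FDR 0.00897) and not without thymic ILC2 library 1 (FDR 0.132) or with only the compared libraries in the fit (FDR 0.0597). Nr4a2 against DN1 (-1.83, FDR 0.000446) likewise did not pass with only the compared libraries (FDR 0.0553). ILC2 were isolated directly from mice while the cultures were grown and sorted, so isolation and cell type cannot be told apart, and the AP-1 and ATF list summed to 9.88 to 24.1 CPM in thymic ILC2 against 105.1 to 555.6 CPM in the cultures.

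In lung ILC2 the level depended on the gene. Egr1, Dusp1, Zfp36 and the 3 Nr4a genes were abundant with wide spread between libraries, Egr2 and Egr3 were at most 7.19 CPM, and Ier2 (2.71 to 11.1 CPM) and Dusp2 lay below every culture library. Zfp36 was 268.2 and 83.6 CPM in dKO lung and 101.9, 97.0 and 201.4 CPM in Id1 lung. Dusp1 was 135.9 and 30.0 against 123.4, 155.1 and 188.5 CPM, and Egr1 91.9 and 4.87 against 119.5, 79.6 and 243.7 CPM. For Egr1, dKO library 1 lay above and dKO library 3 far below the lowest Id1 library. Nr4a1, Nr4a2 and Nr4a3 were 21.1 to 106.3 CPM in dKO lung and 28.1 to 111.9 CPM in Id1 lung, above every culture library of days 5 and 7. Lung and thymus tables were compared by level alone, with no test.

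In the main lung fit Dusp2 alone of the 10 genes passed. Egr1, lower in dKO lung, also passed with a replicate block (-2.61, edgeR FDR 0.000917) or without the low-count filter (-1.82, FDR 0.00278). Dusp2 was 19.4 and 15.97 CPM in dKO lung and 1.07, 3.10 and 1.24 CPM in Id1 lung, with no overlap. Its Id1 values rest on 14, 30 and 14 counts. The Dusp2 difference, 3.23 ± 0.87 on the log2 scale (edgeR FDR 0.0306), was the 1 of 10 that passed in that fit, where 18.1% of all genes did. It was lost without dKO library 3 (FDR 0.11), Id1 library 1 (0.101) or Id1 library 3 (0.0997), when 183 of 20831, 1785 of 17468 and 2050 of 17277 genes of all passed in place of 3499 of 19371. Without dKO library 1, when 5774 of 21861 genes of all passed, 4 of these genes did, among them Egr1 (-4.52, FDR 0.0115), Nr4a3 (-1.59, FDR 0.0311) and Dusp1 (-2.07, FDR 0.0202), each lower in the single dKO library left, which is then assumed to vary as the Id1 libraries do. Egr3 had 0 counts in both dKO libraries, which allows up to 0.533 and 0.812 CPM, and was at 1.99, 0 and 2.75 CPM in Id1 lung.

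Markers of some other cell types were higher in dKO lung without overlap, and those of others overlapped. Lung epithelium markers summed to 26.3 to 51.7 CPM in dKO and 2.28 to 5.59 CPM in Id1 lung, B cell markers to 15.4 to 40.0 against 0.765 to 4.24 CPM, stromal markers to 69.0 to 103.4 against 3.75 to 18.1 CPM, and skeletal muscle markers to 84.1 to 137.7 against 17.8 to 28.5 CPM. The sums overlapped for endothelium (32.5 to 47.1 against 26.8 to 52.4 CPM), myeloid cells (34.6 to 47.6 against 16.6 to 53.7 CPM) and alpha-beta T cells (111.5 to 470.6 against 246.5 to 376.4 CPM). Satellite-type genes held 7.27% to 48.5% of the dKO counts and 0.509% to 3.19% of the Id1 counts. Their part in the Dusp2 difference was not tested. With totals that leave out mitochondrial and satellite-type genes, Dusp2 was 32.9 to 42.9 CPM in dKO lung, 1.65 to 6.76 CPM in Id1 lung and 6.34 to 15.9 CPM in thymic ILC2.

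**Figure D5:**
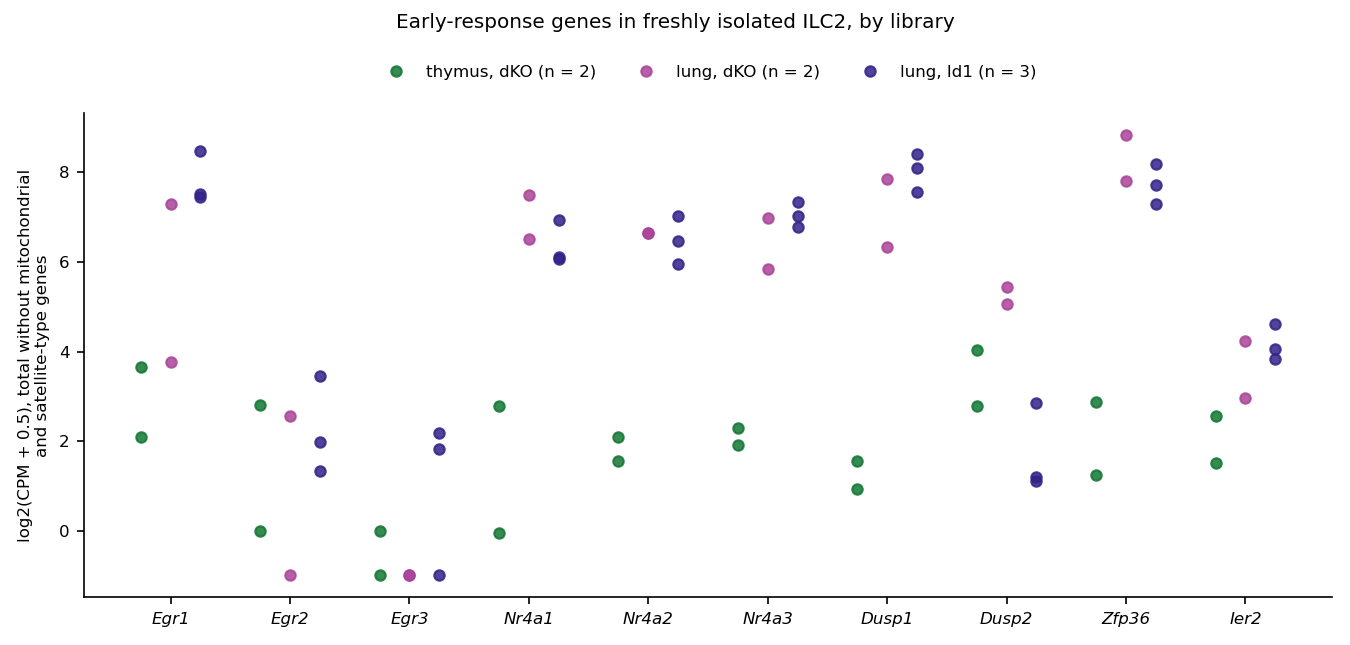
Level of each gene in the 7 fresh ILC2 libraries as log2(CPM + 0.5), with totals counted without mitochondrial and satellite-type genes; points are libraries. With these totals thymic ILC2 lie below every lung library for Egr1, Nr4a1, Nr4a2, Nr4a3, Dusp1, Zfp36 and Ier2. The share of all genes that do so was not counted. With whole-library totals Egr1 overlapped, at 5.19 CPM in thymic ILC2 library 3 and 4.87 CPM in dKO lung library 3. Dusp1 is at most 2.44 CPM in thymic ILC2 and at least 80.6 CPM in every lung library, and Dusp2 separates dKO from Id1 lung.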

How the data were processed

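RNA-seq of total RNA was deposited by the authors as raw counts per Ensembl gene, 1 table for thymus and cultures and 1 for lung. The submitters' processing notes name the build mm10 and DESeq2, and no aligner or counter is given in the sources used here. Symbols came from GENCODE M21, which matched 48664 of 48881 IDs. The 24 culture libraries, the 26 thymus libraries (for thymic ILC2) and the 5 lung libraries were each fitted once with edgeR 4.0.16 (R 4.3.3), using TMM factors, filterByExpr with a minimum count of 10 by group, and the quasi-likelihood test over all genes with Benjamini-Hochberg adjustment. The low-count filter kept 15172, 16391 and 19371 genes. Library totals were summed again after that filter, a choice made after both ways had been seen. Standard errors are the log2 change divided by the square root of F. Levels are CPM of whole libraries. With 2 libraries in most groups, precision rests on the spread pooled over groups (12 residual degrees of freedom in the cultures and 3 in the lung).

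All 10 genes are described. Those described from the other lists are among the 2 of each list with the largest passing change per genotype comparison of days 5 and 7. Not every gene that met this rule is described, Klf6 and Gadd45b being among those left out. The genes and lists were chosen with earlier results of these data known. Alternatives were DESeq2 1.42.0, RLE factors, no filter, only the compared libraries, a replicate block, and each library left out. The code was tested on simulated data, where the lung fit did not recover the changes put in. Samples of mesenteric lymph node were not analysed here.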

Additional observations from a re-analysis of the deposited data

Results flagged for a closer look

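In 3 instances a difference between floxed and control cells differed between the precursors in edgeR's quasi-likelihood test of the difference itself, taken as DN1 minus DN3. On day 5 this held for Dusp1 (1.5 on the log2 scale, FDR 0.0305), which was higher in floxed DN1 cells and did not pass in DN3. On day 7 it held for Dusp2 (-1.15, FDR 0.00465), which was lower in floxed DN1 cells and overlapped in DN3, and for Ier2 (-1.28, FDR 0.00187), which was higher in floxed DN3 cells only among the calls. The 3 calls were not equally stable. Of 14 alternatives each, 8 kept the Dusp1 call, 13 the Dusp2 call and all 14 the Ier2 call. In DN1 the floxed library b of day 7 carried the muscle RNA described above. Genotype and sex went together in both precursors.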

How the results depend on the processing

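No value changed direction after passing, under any alternative. With RLE factors, and with library totals from before the filter (added after seeing the data), all 163 values for single genes kept their side of the threshold. DESeq2 kept 160 and added 3. Leaving out 1 library kept 754, lost 37 and added 13.

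Without the low-count filter, which tested 29760 genes, the number of these genes past the threshold was 2 in DN1 on day 4, 2 in DN3 on day 5, 4 for the change from day 4 to day 7 in DN1 and 4 in DN3, 4 for the precursor difference on day 5, 4 in DN1 controls and 1 in DN3 controls from day 5 to day 7, 4 between the day 7 controls and 2 in the lung. Without that filter 229 in place of 16 genes of all passed in DN1 on day 4, 257 in place of 67 in DN3 on day 4, 536 in place of 207 for the precursor difference of day 5 and 1900 in place of 1182 for that of day 7. For the change from day 4 to day 7 in DN1 it was 1882 in place of 1180. With only the compared libraries the number of these genes was 1 in DN1 on day 4, 2 and 1 for the precursor differences of days 5 and 7, 0 in DN1 floxed cells from day 5 to day 7 and 5 between the day 7 controls. Over all genes that setting gave 38 in place of 16 in DN1 on day 4, 798 in place of 3412 in DN1 on day 7, 421 in place of 1180 for the DN1 change, 369 in place of 1182 for the precursor difference of day 7, 4261 in place of 1988 in DN1 controls and 133 in place of 3256 in DN1 floxed cells from day 5 to day 7, while the day 7 controls gave 5076 in place of 3431. DESeq2 gave 3 for the precursor difference on day 5.

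Leaving out 1 library at a time gave 2 to 3 in DN1 on day 5, 2 to 4 in DN1 on day 7, 0 to 1 in DN3 on day 5 and 2 to 4 in DN3 on day 7. It gave 0 to 2 for the precursor difference on day 5, 0 to 2 in DN1 controls, 1 to 4 in DN1 floxed and 4 to 6 in DN3 floxed cells from day 5 to day 7, and 1 to 3 between the day 7 controls. It gave 6 to 7 for thymic ILC2 against either floxed group and 0 to 4 in the lung. Over all genes it gave 225 to 685 in place of 761 in DN1 on day 5, 1688 (without the library with muscle RNA) to 5803 in place of 3412 in DN1 on day 7, 449 to 1203 in place of 1481 in DN3 on day 5, 2149 to 2878 in place of 3775 in DN3 on day 7 and 183 to 5774 in place of 3499 in the lung.

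Nothing in the labels says that replicate letters mark shared animals or cultures. Over 8898 genes, same-letter deviations correlated between days at 0.227 to 0.39 in DN3 floxed cultures, where letters thus went together on all 3 day pairs, and at -0.193 to 0.13 in the other 3 sets, and the lung numbers gave -0.064 and -0.015 over 7207 genes. A replicate block gave 2 genes past the threshold in the lung, adding Egr1 (-2.61, FDR 0.000917), and in the cultures added Nr4a2 in DN1 on day 5 (FDR 0.0475) and lost Egr2 in DN3 floxed cells from day 5 to day 7. The lung fit had a biological coefficient of variation of 0.706 against 0.138 in the cultures, and with 3 residual degrees of freedom a lung gene that did not pass is not shown to be alike in both groups.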
